A study of Rattus norvegicus with 8 samples.

Results

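The Kv4 potassium channel complex was followed through 9 genes. They are the pore genes Kcnd1, Kcnd2 and Kcnd3, the KChIP genes Kcnip1 to Kcnip4, and Dpp6 and Dpp10. Members were chosen by name, with the difference of Kcnip2 between the groups already known, and probes were assigned through the transcript accession in the scanner files. This gave 16 of the 45598 non-control probes, with at least 1 probe for each of the 9 genes. RNA came from vessels of male rats, measured on 1 array per animal. The 4 control rats were Wistar-Kyoto, a normotensive laboratory strain. The 4 disease model rats are labelled hypertensive, and their strain entry also reads Wistar-Kyoto, so the strain or treatment that made them hypertensive is not settled by the labels. Age and the vessel taken are not given in the sources used here.

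Kv4 channels open briefly on depolarisation and then inactivate, and so carry transient, A-type potassium currents in neurons, heart and some smooth muscle. KChIPs are calcium-binding proteins that attach to the cytoplasmic N-terminus of Kv4, bring more channels to the cell surface and change how fast they inactivate and recover. DPP6 and DPP10 are membrane proteins related to dipeptidyl peptidases that lack enzyme activity and speed the gating of Kv4. In rodent heart, KChIP2 (Kcnip2) is the main KChIP partner of Kv4 channels.

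All levels below are log2 processed signal minus the 75th percentile of the array, so 0 marks the 75th percentile (a signal of 357 to 503 on the 8 arrays). "Above background" refers to the scanner software's mark for a spot well above background, required on at least 50% of a probe's spots. Values of the 4 arrays of a group are listed in the order of replicates 1 to 4. A probe was kept where at least 3 of 4 arrays of a group had that mark. Of the probes, 58.7% to 64.1% per array were above background. Precision is limited by the number of arrays. Smooth muscle markers (8 of 8 kept) and endothelial markers (6 of 7, with Egfl7 not matched to a probe) were measured in both groups. Control arrays sat in row 1 of the slide and hypertensive arrays in row 2, so slide row and group cannot be told apart. Hypertensive replicate 4 stood apart from the others on the second principal component of all tests (-44.6, against -12.0 to 24.9).

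Promoters of the 3 genes for which RefSeq gives a start site and the arrays gave a signal on all 8 animals are shown, because Kcnip2 differed between the groups while its relative Kcnip3 and the pore gene Kcnd3 are read beside it. Each window runs from 250 bases before to 50 bases after the RefSeq start site in build GRCr8, written along the gene. The RefSeq table held 7 of the 9 members, all but Kcnip4 and Kcnd1. Capitals mark matches to the GC box GGGCGG on either strand.
Kcnip2, chr1:254613849-254614148 (minus strand): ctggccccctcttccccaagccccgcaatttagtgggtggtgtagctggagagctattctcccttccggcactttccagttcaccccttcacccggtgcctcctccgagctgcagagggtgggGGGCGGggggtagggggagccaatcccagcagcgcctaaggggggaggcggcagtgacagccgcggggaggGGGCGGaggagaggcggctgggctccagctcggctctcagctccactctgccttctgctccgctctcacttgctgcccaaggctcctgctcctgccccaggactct
Kcnip3, chr3:135195361-135195660 (minus strand): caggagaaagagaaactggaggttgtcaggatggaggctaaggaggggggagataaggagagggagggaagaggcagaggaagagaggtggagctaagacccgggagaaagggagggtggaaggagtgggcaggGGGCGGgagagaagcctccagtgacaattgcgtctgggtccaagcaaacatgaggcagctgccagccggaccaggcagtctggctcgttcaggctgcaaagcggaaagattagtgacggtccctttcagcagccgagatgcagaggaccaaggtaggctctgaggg
Kcnd3, chr2:195626066-195626365 (plus strand): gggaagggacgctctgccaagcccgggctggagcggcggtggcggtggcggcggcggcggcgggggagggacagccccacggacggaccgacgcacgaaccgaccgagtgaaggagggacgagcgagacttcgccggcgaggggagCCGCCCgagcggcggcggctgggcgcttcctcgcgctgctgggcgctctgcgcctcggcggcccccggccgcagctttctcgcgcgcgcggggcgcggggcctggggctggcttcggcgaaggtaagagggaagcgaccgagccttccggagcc
The Kcnip2 window holds 2 GC boxes, starting at -127 and -56 from the start site. The Kcnip3 window holds 1, at -116, and the Kcnd3 window 1, at -104. Of 33469 rat promoter windows of this length, 33.1% hold at least 1 GC box. The CACCC box bound by KLF factors (CACCC, either strand) occurs 4 times in the Kcnip2 window, 1 time in that of Kcnip3 and 0 times in that of Kcnd3, and 54.9% of all windows hold it. No GC box here overlaps a CACCC box. A CCAAT box (CCAAT, either strand) is in the Kcnip2 window alone of these 3, and in 37.5% of all windows. These shares are for at least 1 match. Windows of members not shown hold like counts. A Kcnip1 window has 4 CACCC and 2 CCAAT boxes, a Dpp10 window 4 CACCC boxes, and the Dpp6 window 2 GC boxes. The Kcnd2 window and the other windows of Kcnip1 and Dpp10 hold 0 to 2 CACCC boxes and no GC or CCAAT box. These matches describe letters only, not bound sites.

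Of the 5 member genes that could be tested, 1 (Kcnip2) had an adjusted p under 0.05 in the limma fit across all tests. Of all 24552 tests (11965 named genes and 12587 probes without a gene name), 4.53% passed. The calls were 641 higher and 470 lower, or 529 higher and 586 lower with quantile normalization. Arrays of the groups were fully separated for 1 of the 5, against 13.6% of all tests. These shares stand beside the member counts only as background, since the contrast helped to choose the members. The other 4 genes (Kcnip4, Kcnd2, Dpp6 and Dpp10) failed the detection filter. The count of members was 1 under every one of 17 alternatives, which likewise describes a gene chosen with its difference known.

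Kcnip2 gave far more signal in hypertensive vessels than in control vessels. Its bright probe, read by 10 spots on each array, had a processed signal of 93.7, 67.1, 104 and 117 in the controls. In the hypertensive arrays it was 710, 716, 854 and 1100. Every hypertensive array lay above every control array. On the level scale the controls were at -2.34, -2.60, -2.28 and -1.94, a mean of -2.29 ± 0.27 (SD, n = 4). The hypertensive arrays were at 0.99, 0.87, 1.12 and 1.20, a mean of 1.05 ± 0.14 (SD, n = 4). The log2 change was 3.33 ± 0.14 (SE of the limma fit across all tests), or 10.1-fold. Since this contrast chose the gene, the value is a description. Its place in the count above is not read as a test. Kcnip2 ranked 5 among the rises of 11965 named genes and 14 among all 24552 tests. Leaving out any 1 array gave 3.23 to 3.45, with 3.28 without hypertensive replicate 4. With normexp background correction, whose offset of 50 compresses dim signals, the change was 2.61.

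**Figure D1:**
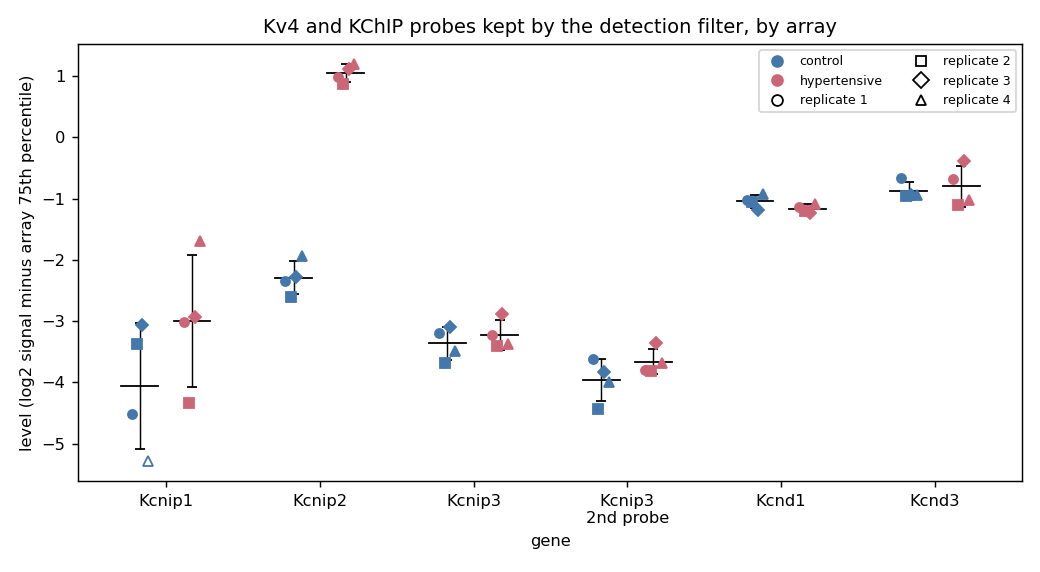
Level (log2 signal minus the array's 75th percentile, vertical axis) of the 6 kept probes of Kv4 and KChIP genes, with 1 point per array, colour for group, shape for replicate, an open symbol where not above background, and bars for mean ± SD (n = 4). Kcnip2 is separated between the groups (-2.60 to -1.94 against 0.87 to 1.20), and the other 5 probes overlap.

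The repeated spots give the measurement error of Kcnip2 within an array. Over 10 spots the SD was 0.082 to 0.129 (log2) on the control arrays and 0.060 to 0.080 on the hypertensive arrays, smaller than the SD between animals in each group. Taking each spot position alone, the change between groups was 3.24 to 3.42. All 10 positions thus gave nearly the same difference. The scanner software marked 2 spots of control replicate 3 and 1 of control replicate 4 as outliers, and these were left out of the level.

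**Figure D2:**
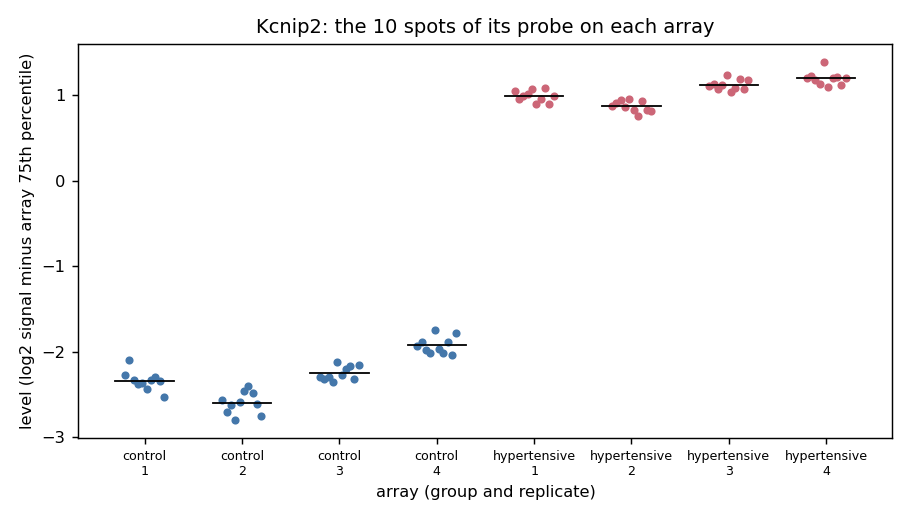
Level of each of the 10 spots of the Kcnip2 probe (log2 signal minus the array's 75th percentile) on the 8 arrays, points for spots, outlier spots included, and a line for their mean. Spots of 1 array lie close together, and no spot of a control array reaches any spot of a hypertensive array.

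A second Kcnip2 probe, with 1 spot and the same transcript accession, was dim and failed the filter. Its signal was 6.74, 2.70, 3.02 and 2.62 in the controls, none above background. In the hypertensive arrays it was 4.68, 9.52, 7.39 and 13.1, with replicate 4 alone above background. The groups overlapped. No fold is given for it, since 7 of its 8 values were not above background. The 10.1-fold difference therefore rests on 1 probe, and which part of the transcript each probe reads was not determined here.

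Of the other KChIP genes, Kcnip3 and Kcnip1 overlapped between the groups and Kcnip4 was not detected. Kcnip3 encodes KChIP3, also called DREAM or calsenilin, which besides binding Kv4 can act as a transcriptional repressor. Its brighter probe gave a signal of 51.6, 31.4, 58.9 and 40.4 in the controls and 38.0, 37.0, 53.3 and 45.8 in the hypertensive arrays. Those ranges overlap across most of their width. The level was -3.37 ± 0.27 (SD, n = 4) in control and -3.22 ± 0.24 (SD, n = 4) in hypertensive vessels, a difference of 0.14 ± 0.16 (SE) with a 95% interval of -0.23 to 0.51. A second Kcnip3 probe, above background on all 8 arrays, gave 38.8, 18.8, 35.4 and 28.3 in controls and 25.8, 27.9, 38.2 and 37.3 in hypertensive vessels. Its difference was 0.31 ± 0.18 (SE, from a fit of every kept probe). Both probes were lowest among the controls in replicate 2 and highest among the hypertensive arrays in replicate 3.

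Kcnip1, whose protein partners Kv4 mainly in neurons, varied more between animals than any other kept member. The signal was 20.6, 39.3, 60.0 and 11.5 in the controls, the last not above background. It was 44.2, 19.3, 51.0 and 148 in the hypertensive arrays. Hypertensive replicate 4 was the highest of all 8 arrays, and hypertensive replicate 2 lay below 3 of the controls in signal, or below 2 of them once the 75th percentile is subtracted. The level was -4.06 ± 1.03 (SD, n = 4) in control and -3.0 ± 1.09 (SD, n = 4) in hypertensive vessels, a difference of 1.06 ± 0.62 (SE) with a 95% interval of -0.35 to 2.47. Without hypertensive replicate 4 the difference was 0.63, without control replicate 4 it was 0.66, and with normexp it was 0.36. A second Kcnip1 probe had signals of 6.45 to 7.41 in the controls and 2.47, 5.62, 7.06 and 14.0 in the hypertensive arrays, above background in hypertensive replicate 4 alone. The probe of Kcnip4, which encodes a KChIP with variants that slow Kv4 inactivation, was above background on none of the 8 arrays, with a highest signal of 10.3 in hypertensive replicate 4.

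The pore genes Kcnd1 and Kcnd3 were measured on every array and Kcnd2 on none. Kcnd1 gave signals of 233, 196, 222 and 236 in the controls and 162, 169, 166 and 226 in the hypertensive arrays. On that scale 3 hypertensive arrays lie below all controls, but after the 75th percentile is subtracted the groups overlap. Its level was -1.04 ± 0.10 (SD, n = 4) in control and -1.17 ± 0.07 (SD, n = 4) in hypertensive vessels. The difference was -0.12 ± 0.08 (SE), with a 95% interval of -0.31 to 0.07. This was the narrowest interval of the 5 tested members.

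Kcnd3, a pore gene of the transient outward current in heart, gave signals of 300, 209, 263 and 235 in the controls and 222, 181, 301 and 236 in the hypertensive arrays on its bright probe. All control signals lie within the range of the hypertensive arrays. On the level scale the range was 0.30 in control and 0.73 in hypertensive vessels (log2). The level was -0.87 ± 0.14 (SD, n = 4) in control and -0.80 ± 0.33 (SD, n = 4) in hypertensive vessels, a difference of 0.07 ± 0.16 (SE) with a 95% interval of -0.30 to 0.44. The sign turned without hypertensive replicate 3 (-0.07) and with median centring (-0.01). A second Kcnd3 probe for the same accession was above background on 2 of 4 arrays in each group, with signals of 8.23 to 15.7 in control and 8.62 to 18.8 in hypertensive vessels. The third, for another Kcnd3 transcript accession, was above background on no array, with signals of 2.40 to 3.45. Kcnd2, the main pore gene of A-type current in many neurons, was read by 3 probes, each above background on 0 of 8 arrays, with signals of 2.37 to 3.65.

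The DPP-like genes were at the edge of detection or below it. Dpp6 gave signals of 7.78, 8.03, 8.73 and 6.42 in the controls, none above background, and 2.79, 5.95, 5.92 and 14.7 in the hypertensive arrays. Hypertensive replicate 4 alone was above background. Dpp10 was above background on 0 of 8 arrays, with signals of 2.49 to 3.13. Failing the mark shows that these transcripts were not detectable with these probes, not that they are absent.

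**Figure D3:**
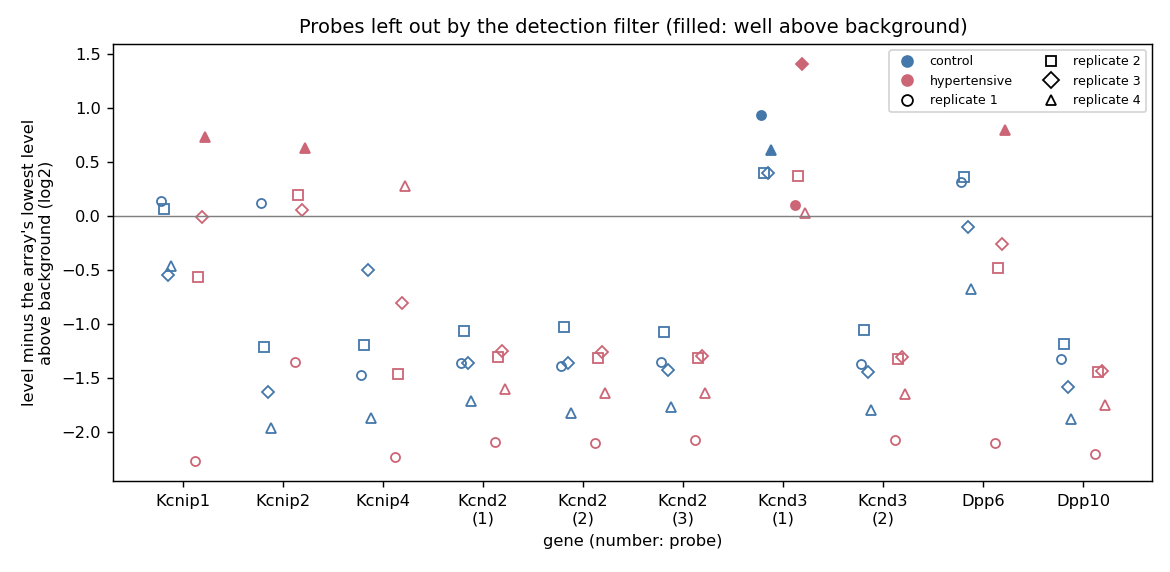
Level of the 10 member probes that failed the detection filter, minus the lowest level above background on the same array (log2, vertical axis), with 1 point per array, colour for group, shape for replicate and filled symbols where above background. All points of Kcnd2, Dpp10 and the second Kcnd3 probe in the plot lie below 0, and hypertensive replicate 4 is the filled point of Kcnip1, Kcnip2 and Dpp6.

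Hypertensive replicate 4 was thus the highest array for Kcnip1 on both probes, for both Kcnip2 probes, for Kcnip4 and for Dpp6. Most of these values are near or below background, and the bright Kcnip2 probe was at 1.20 there, against 1.12 in hypertensive replicate 3. Hypertensive replicate 4 was not the highest array for Kcnip3, Kcnd1 or Kcnd3. It was the lowest hypertensive array for every Kcnd2 probe, for Dpp10 and for the dim Kcnd3 probes. The same array had a summed white adipocyte marker signal (6 of 7 markers kept, Plin1 not kept, as multiples of the 75th percentile) of 37.3. That sum was 3.43 to 9.89 in the controls and 3.56 to 7.02 in the other hypertensive arrays. The part of fat cell RNA in these member values was not tested. In bulk tissue, fewer cells of a type and less RNA per cell cannot be told apart.

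Cells in which this complex is well known were looked for through marker lists. Of 10 cardiac muscle markers, 5 were kept, and none of these passed (0 at an unadjusted p under 0.05, which 20.3% of all tests reached). Their summed signal was 1.20 to 1.31 in control and 1.24 to 1.47 in hypertensive vessels. The defining markers Myh6, Myl2, Nppa and Mybpc3 were above background on 0 of 8 arrays, and Myl7 on 1. Of 12 neuron markers, 6 were kept, and where 4.53% of all tests passed, 1 of the 6 did (3 at an unadjusted p under 0.05). This was the neurofilament gene Nefh, above background on 0 control and 4 hypertensive arrays, so that it was kept through the hypertensive group alone. It was 13.0-fold higher there when the lowest signal above background (or the probe's own where higher) stood for each control array. Some probes without the mark lie above that stand-in, so the value is not a strict lower bound. Nefh passed with the detection filter and without it (adjusted p = 0.00015 and 0.00055, limma). With normexp its log2 change was 1.36, against 4.44 in the main fit, where no control value was above background. The vesicle protein gene Syt1, above background on 1 control and 3 hypertensive arrays, was also kept through the hypertensive group alone. Syt1 differed by 1.18 ± 0.37 and Stmn2, a regulator of microtubules in neurons, by 0.71 ± 0.30. Neither passed (adjusted p = 0.12 and 0.22, limma). The other kept neuron markers, Th, Prph and Tubb3, were above background on all 8 arrays and overlapped between the groups. They differed by 0.13 ± 0.10, 0.10 ± 0.17 and 0.22 ± 0.13. The summed neuron signal was 3.24 to 4.54 in control and 4.02 to 5.66 in hypertensive vessels, overlapping. Nefl, Nefm, Snap25, Dbh and Elavl4 were above background on 0 arrays. The 7 Schwann cell markers were all kept and none passed (2 at an unadjusted p under 0.05), with a summed signal of 19.1 to 24.6 in control and 21.4 to 25.5 in hypertensive vessels. Of 9 skeletal muscle markers, 7 were kept and 1 passed (3 at an unadjusted p under 0.05), with a summed signal of 2.15 to 2.50 in control and 2.10 to 3.06 in hypertensive vessels. The one that passed was Myh1, a fast skeletal myosin heavy chain, at -5.02, -6.41, -4.46 and -4.55 in the controls (replicate 2 not above background) and -2.71, -3.81, -1.87 and -2.96 in the hypertensive arrays, with no overlap. It rose by 2.28 ± 0.50 (adjusted p = 0.040, limma), or by 0.70 (adjusted p = 0.034) with normexp. That call was lost with no detection filter (adjusted p = 0.084) and without any 1 array other than hypertensive replicate 2 (adjusted p up to 0.098). The 3 at an unadjusted p under 0.05 were not alike in direction. Besides Myh1, they were Myh2, higher by 0.73 ± 0.18, and Acta1, at -0.42 ± 0.16, each with no overlap. Neither of them passed (adjusted p = 0.055 and 0.19, limma). Myog and Tnnt3 also had lower means in the hypertensive group, and Ckm and Tnni2 higher ones. The parts of nerve and skeletal muscle RNA in the Kcnip2 difference were not tested.

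Of 37 genes for other voltage-gated potassium channel pore subunits, 17 were kept, 1 rose and 1 fell in limma, where 4.53% of all tests passed. An unadjusted p under 0.05 was reached by 6 of the 17, against 20.3% of all tests, and the median change of the 17 was -0.021, against 0.041 over all tests. Kcns2 and Kcng2, which passed, both encode silent subunits that form no channel alone and modify other Kv channels. Kcns2 was at -4.29, -3.51, -3.30 and -4.63 in the controls and -2.54, -2.05, -2.72 and -2.89 in the hypertensive arrays. It rose by 1.38 ± 0.31 (SE, adjusted p = 0.041, limma), with all 4 hypertensive arrays above all controls. With normexp the rise was 0.51 (adjusted p = 0.027). The call was lost with quantile normalization (1.31, adjusted p = 0.058), with no detection filter, and without any 1 of control replicates 1, 2 and 4 and hypertensive replicates 1, 2 and 3 (adjusted p up to 0.11 among the tests that leave out 1 array).

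Kcng2 was at -0.34, -0.55, -0.32 and 0.02 in the controls and -0.99, -0.66, -1.33 and -1.12 in the hypertensive arrays. Its change was -0.73 ± 0.16 (SE, adjusted p = 0.044, limma), lower in 4 of 4 hypertensive arrays. The call was lost without any 1 array other than hypertensive replicate 2 (adjusted p up to 0.10), with no detection filter and with the replicate number as a block (adjusted p = 0.12). Kcnq1 differed by 0.88 ± 0.21 and did not pass (adjusted p = 0.053, limma).

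**Figure D4:**
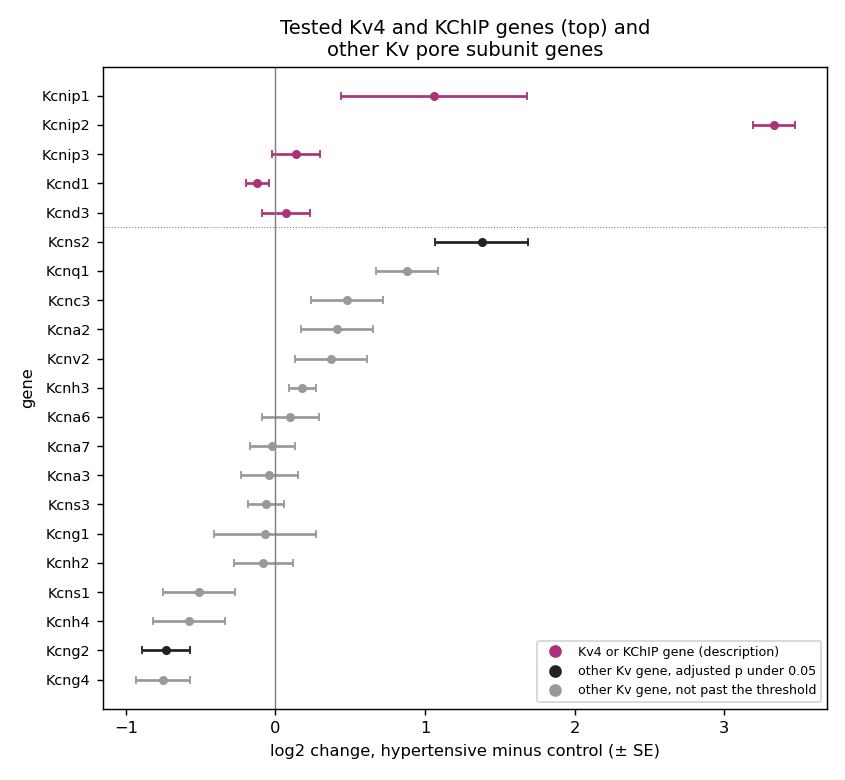
Log2 change, hypertensive minus control, with SE from the limma fit (horizontal axis, n = 4 arrays per group), for the 5 tested Kv4 and KChIP genes above the dotted line and 16 of the 17 kept genes for other Kv pore subunits below it. Kcnip2 lies at 3.33, and Kcns2 (1.38) and Kcng2 (-0.73) are the Kv pore genes past the threshold.

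None of the 14 kept genes (of 21) for other accessory subunits and scaffolds that bind Kv4 passed in the limma fit. Among them, 2 had an unadjusted p under 0.05, against 20.3% of all tests, and the median change was -0.001. Camk2b, a calcium/calmodulin-dependent kinase subunit, was closest, at -5.09, -5.37, -5.29 and -5.26 in the controls and -4.66, -4.67, -4.25 and -4.99 in hypertensive vessels. It was above background on 1 control and 4 hypertensive arrays and differed by 0.61 ± 0.15 (adjusted p = 0.058, limma). It was thus kept through the hypertensive group, and 3 of its 4 control values are not above background. With normexp the difference was 0.09 (adjusted p = 0.47). It passed without hypertensive replicate 4 (0.73, adjusted p = 0.020), and in none of the other fits that leave out 1 array (adjusted p up to 0.14). The scaffold gene Dlg4 differed by -0.28 ± 0.09 (adjusted p = 0.14, limma).

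Other neuronal calcium sensor genes and other peptidase genes on the lists did not pass either. Of 9 other neuronal calcium sensor genes, 5 were kept and 0 passed in limma (0 at an unadjusted p under 0.05), with Rcvrn at -0.22 ± 0.11 and Ncald at 0.16 ± 0.20. Of 8 other peptidase genes, all were kept and 0 passed (3 at an unadjusted p under 0.05, against 20.3% of all tests). Dpp4, the active peptidase on endothelial, epithelial and immune cells, was at -2.13, -1.25, -1.53 and -1.59 in the controls and -3.14, -2.49, -2.49 and -1.70 in the hypertensive arrays. Its difference was -0.83 ± 0.29 (adjusted p = 0.16, limma), and -1.08 (adjusted p = 0.039) without hypertensive replicate 4, the highest hypertensive array. Dpp4 passed in none of the other fits that leave out 1 array (adjusted p up to 0.31). Prepl differed by -0.29 ± 0.11.

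Of 14 transcription factor genes reported upstream of Kcnd or Kcnip2 genes, 8 were kept and 0 passed in limma. Among the 8, 1 had an unadjusted p under 0.05, against 20.3% of all tests. Irx5, a repressor of Kcnd2 in mouse heart, was at -1.74, -2.20, -1.90 and -2.26 in the controls and -2.64, -2.63, -2.91 and -2.16 in the hypertensive arrays. It differed by -0.56 ± 0.18 (adjusted p = 0.12, limma), and by -0.71 (adjusted p = 0.036) without hypertensive replicate 4. Irx5 passed in none of the other fits that leave out 1 array (adjusted p up to 0.26). Nfatc3 differed by 0.16 ± 0.08. Klf15, which drives the daily rhythm of Kcnip2 in mouse heart, differed by -0.19 ± 0.17 (adjusted p = 0.58, limma).

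Of 10 entries reported as targets of DREAM, 6 were kept and 2 fell, the immediate early genes Fos and Nr4a1, where 4.53% of all tests passed. An unadjusted p under 0.05 was reached by 4 of the 6, against 20.3% of all tests. The other two did not pass after adjustment, Bdnf at 0.68 ± 0.17 (adjusted p = 0.058, limma) and Hrk at 0.42 ± 0.18 (adjusted p = 0.24). Fos was at 4.89, 4.11, 5.23 and 4.13 in the controls and 3.19, 2.98, 2.32 and 2.61 in hypertensive vessels, with no overlap. Its change was -1.81 ± 0.29 (adjusted p = 0.0094, limma), and it passed without any 1 array. Nr4a1 was at 4.59, 4.36, 5.27 and 4.48 in the controls and 3.09, 3.79, 2.13 and 1.59 in hypertensive vessels. It changed by -2.03 ± 0.44 (adjusted p = 0.039, limma), lower in 4 of 4 hypertensive arrays, a call lost with no detection filter, with the replicate block (adjusted p = 0.096) and without any 1 of the 4 controls or hypertensive replicates 1 and 3 (adjusted p up to 0.097). The median of the 6 was 0.143, above 0.041 over all tests, so the list's median and its 2 calls differ in sign. Both genes answer to many stimuli, and their probes say nothing about DREAM itself.

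Genes whose profile lay nearest to that of Kcnip2 were sought among 11338 other named genes above background on all 8 arrays. Likeness was the mean absolute difference over 8 arrays between a gene's level and that of Kcnip2, each taken relative to its own control mean. The nearest was Nsg2, which encodes a neuronal vesicle protein, at 0.27 (log2). Tuft1 followed at 0.45, Rgs11 and Myoc at 0.67 and RT1-O1 at 0.68. Relative to its control mean, Nsg2 was at 2.82, 3.57, 3.32 and 3.34 in the hypertensive arrays, beside 3.28, 3.16, 3.41 and 3.49 for Kcnip2. The hypertensive arrays in which each gene was highest were thus not the same. Such a ranking mostly picks genes with a like difference between groups.

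**Figure D5:**
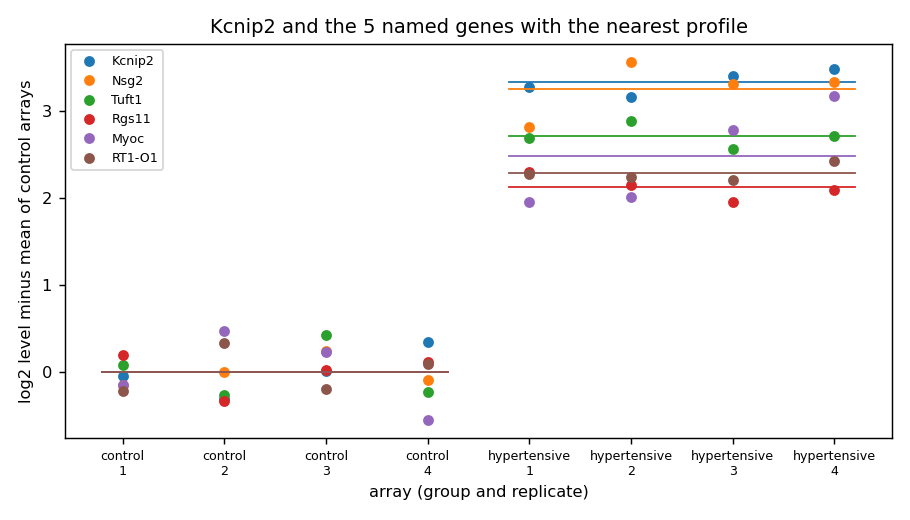
Log2 level minus the mean of the control arrays (vertical axis) of Kcnip2 and the 5 nearest named genes on the 8 arrays, with 1 point per array and a line for each group mean. Kcnip2 and Nsg2 lie close together in the hypertensive arrays (2.82 to 3.57), and the other 4 genes have lower group means.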

How the data were processed

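Total RNA from vessels was hybridised to 1 single-colour array per rat. Intensity values of each spot came from Agilent Feature Extraction, background-subtracted, per the file headers (version 10.7.1.1, against 12.1.1.1 in the submitters' processing notes). The authors' deposited value table holds a linear ratio (column medians 0.086 to 0.101). Above 1 it equals the processed intensity over the array's 75th percentile, times 1.003 to 1.005. How it was made is otherwise unstated, and it served as an alternative.

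Spots were averaged per probe as log2 values, without those marked as outliers unless a probe had no other. The 75th percentile over probes was subtracted. Probes well above background on at least 3 of 4 arrays of a group were kept (27822 of 45598). The brightest kept probe stood for each of 11965 named genes, and each of 12587 kept probes without a gene name stood alone. This gave 24552 tests in limma 3.58.1 (R 4.3.3), with group as the only term and Benjamini-Hochberg adjustment. The fit was checked on simulated data. Accessions were named through RefSeq tables of assembly GRCr8, which named 21229 probes.

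The members and lists were chosen with earlier results of these data known. All probes of the 9 members are accounted for. From each pathway list every gene past the threshold is named, or, where there was none, the 2 with the smallest p. For Kcnip2, the 5 named genes nearest in profile are given. Other values of genes outside this rule (Kcnq1, Klf15, Bdnf, Hrk and the cell type markers) were added after they were seen. Some listed genes are not reported here. The alternatives were 9 processing changes and the omission of each array. Normexp used the median spot signal, the foreground column at hand, in place of the mean. All arrays shared 1 slide and 1 scan time.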

Additional observations from a re-analysis of the deposited data

Results flagged for a closer look

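Kcnd3 in control replicate 1 lay far from the other 3 controls. Its level on the bright probe was -0.66, and the nearest control was at -0.94, a gap of 0.929 of the group's whole range. Of the 12 groups of 4 arrays checked (6 kept member probes in both groups), this was the 1 past Dixon's critical value at the 95% level, and chance marks about 1 group in 20. Without that array the Kcnd3 difference was 0.14, against 0.07 with it.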

How the results depend on the processing

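The number of member genes past the threshold was 1 under all 17 alternatives. It is a description, since Kcnip2 was chosen with its difference known. Kcnip2 gave 2.61 with normexp and 3.23 to 3.45 under the other 16 alternatives. Over all tests, 1111 passed, with 641 without the detection filter (41047 tests), 675 with the replicate block and 629 to 1473 with 1 array left out. The higher and lower calls were 641 and 470, turning to 529 and 586 with quantile normalization, 642 and 733 with normexp and 422 and 652 with median centring. Of the pathway lists, 4 genes passed, with 1 without the filter (Fos), 2 with the replicate block and 1 to 7 with 1 array left out (7 without hypertensive replicate 4). Of the markers, 2 passed, with 4 under normexp, 1 without the filter (Nefh), 1 with detection on all 8 arrays and 1 to 3 with 1 array left out. The 1 with detection on all 8 arrays was another marker, since neither Nefh nor Myh1 was above background on every array. The cause of these shifts was not tested. The replicate number was also the slide column in both groups, so same-numbered arrays shared a column. Deviations of same-numbered arrays correlated at 0.206, 0.115, -0.004 and -0.148, and not every array correlated best with its own number. With 4 arrays per group these values cannot decide whether same-numbered arrays were paired. The main fit treated the arrays as unpaired. Dim probes limit the rest, since 10 of 16 member probes failed the detection filter.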
